A study of Bos taurus with 8 samples.

Results

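TRIM genes encode the tripartite motif proteins, a large family of mostly RING-type ubiquitin ligases. Their measured members were the rows of 4 bovine single-cell RNA tables whose symbol is TRIM followed by a number and which held at least 20 UMIs (unique molecular identifiers, each standing for 1 captured mRNA) over the 4 libraries. This rule kept 36 of 55 TRIM rows, out of 21861 genes in the tables. The other 19 rows were too sparse to describe: 10 had no UMI in any library, where a count of 0 allows up to 3, and 9 had between 1 and 19 UMIs. Just below the minimum was TRIM47 with 14 UMIs, and just above it was TRIM58 with 37.

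Whole blood of 4 female lactating Holstein cattle, 2 years old, was pooled and divided into 4 parts. One part received no LPS (lipopolysaccharide, the outer membrane glycolipid of Gram-negative bacteria). The others were exposed to LPS at 2 µg/ml, 1 of them for 2 h, 1 for 4 h and 1 for 8 h, so that blood cells could be compared over LPS time. How long the untreated part was kept is not given in the sources used here, so LPS and time since blood collection cannot be told apart in the ratios to it. Peripheral blood mononuclear cells (PBMCs) were then isolated, and each part gave 1 single-cell RNA library and 1 single-cell ATAC library, an assay of open chromatin. The animals were pooled, so a treatment had 1 library per assay and no replicate, and no difference carries a p-value. The 95% intervals take in counting error and nothing else. Where values stand in a row without a time, they follow the order no LPS, 2 h, 4 h, 8 h.

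A tripartite motif protein carries a RING domain, 1 or 2 B-boxes and a coiled coil, followed by a C-terminal part that sets its targets. The largest group ends in a PRY-SPRY domain. It holds restriction factors such as TRIM5, which binds incoming retroviral capsids, the cytosolic antibody receptor TRIM21, and TRIM25, which ubiquitinates the RNA sensor RIG-I. Several of these genes are known to be induced by interferon. A smaller group with a PHD finger and a bromodomain, TRIM24, TRIM28 and TRIM33, acts on chromatin as transcription corepressors. Other members, among them TRIM8, TRIM13, TRIM23 and TRIM27, act on cytokine and NF-κB signalling.

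The libraries kept 7821, 9865, 7387 and 3411 cells with 200 to 3000 genes and under 20% mitochondrial UMIs, which held 16657841 to 47875879 UMIs per library, with medians of 3997 to 4757 per cell. CD14+ cells (at least 2 CD14 UMIs and none of the other gate genes), CD3E+, MS4A1+ and NCR1+ cells (at least 1 UMI of that gene and none of the others) were gated as monocyte, T cell, B cell and NK cell classes. All 8 monocyte markers outside the gate were highest in the CD14+ class in each library, 7 of 8 B cell markers in MS4A1+ cells, 5 or 6 of 8 T cell markers in CD3E+ cells and 7 or 8 of 8 NK cell markers in NCR1+ cells. The CD14+ class held 707, 308, 117 and 66 cells, or 9.04%, 3.12%, 1.58% and 1.93% of cells. The NCR1+ class never exceeded 97 cells. Unclassed cells made up 24.1%, 21.6%, 19.3% and 32.1% of cells, and at 8 h their median was 1710.5 UMIs per cell. Across all libraries, 93 barcodes occurred in more than 1 library. Class levels sum the UMIs of a class, and levels over all cells sum those of a library, so that fewer cells of a class and less RNA per cell cannot be told apart in the latter.

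The 36 members together held 112812 UMIs over all deposited barcodes, and TRIM25 and TRIM28 gave 37.2% of them. Levels are UMIs per 1000000 UMIs (CPM), counted from the 3′ ends of transcripts. The family sum was 515 CPM in the untreated library (Poisson interval 508 to 522) and 511 CPM at 2 h (504 to 517). It was 636 CPM at 4 h (628 to 644) and 577 CPM at 8 h (565 to 588). The sum was therefore highest at 4 h, and the libraries without LPS and at 2 h had overlapping intervals. Most members did not share this rise. Their median log2 ratio at 4 h was 0.02, beside 0.02 for all genes, with 13 ratio intervals above 1 and 8 below 1. The intervals of all genes were not counted. Without LPS and at 4 h the sum was 355 and 471 CPM in CD14+ cells, 518 and 604 in CD3E+ cells, and 657 and 722 in MS4A1+ cells.

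A difference was called where log2((CPM + 1)/(CPM + 1)) reached 1 in size, that is 2-fold. In all cells, no member was called higher at any time, where 0.864%, 1.17% and 0.44% of the 13188 genes with at least 20 UMIs were higher in the 2 h, 4 h and 8 h libraries. TRIM8 was called lower at 2 h and at 4 h, and no member was called lower at 8 h. Of all genes, 2.27%, 3.9% and 2.61% were lower in the same libraries. On a 1.5-fold call, TRIM5, TRIM21, TRIM25 and TRIM26 were higher at 4 h, 4 of 36 members against 4.31% of all genes, and TRIM14, TRIM23 and TRIM44 were higher at 8 h, 3 of 36 members against 4.38%. With each class given its untreated share of UMIs, 2 were higher at 4 h, TRIM21 and TRIM25, and 0 at 8 h, and with TMM or DESeq2 factors TRIM14 alone was higher at 8 h. No member was 1.5-fold higher at 2 h, against 2.93% of all genes. TRIM8 was again the 1 member lower at 2 h and at 4 h on this call, against 5.79% and 8.27% of all genes, and none was lower at 8 h, against 5.94%.

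**Figure D1:**
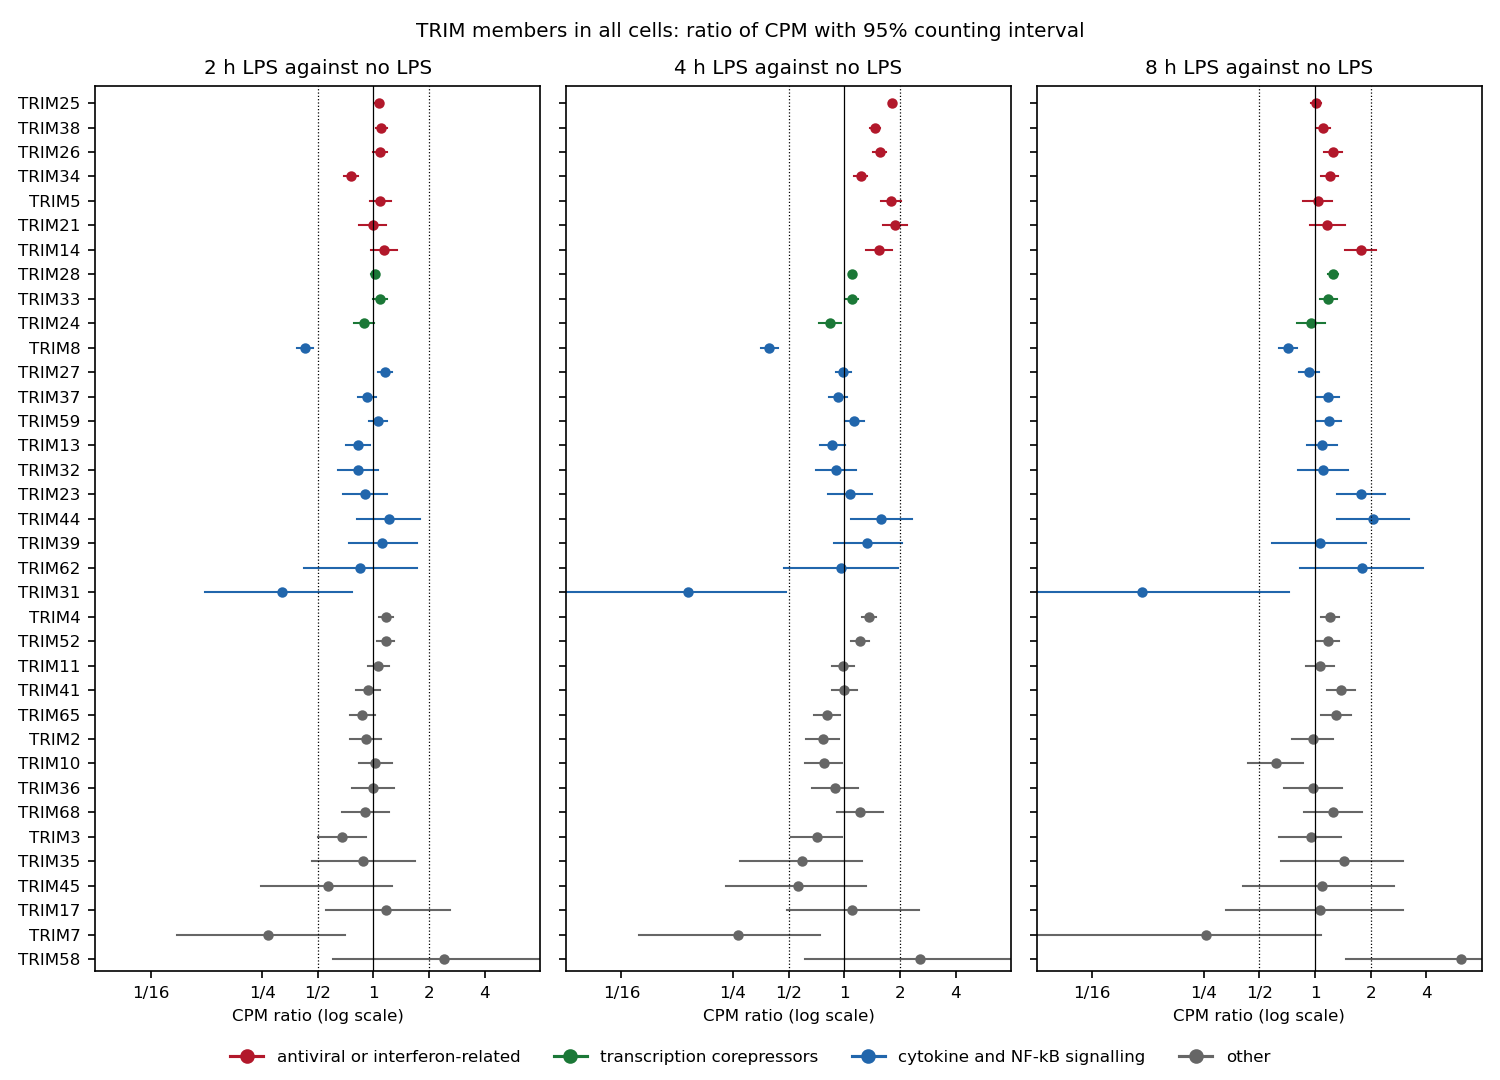
Ratio of CPM in each LPS library to the library without LPS for the 36 members over all cells (log2-spaced axis, no pseudocount), with 95% counting intervals as bars and 2-fold marked by dotted lines. Colours give the role groups. At 4 h the 7 antiviral or interferon-related members all sit above 1, and TRIM8 sits below 1/2 at 2 h and 4 h; bars of TRIM58, TRIM31 and TRIM7 run past the axis, as these members rest on 11 to 28 UMIs per comparison.

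Of the members, 7 belong to the antiviral or interferon-related group. All 7 of them had log2 ratios above 0 at 4 h, from 0.29 to 0.85 with a median of 0.62, while the median over all genes was 0.02 and 51.9% of genes were above 0. The group's median was 0.11 at 2 h and 0.20 at 8 h. Of the 7, 6 had their highest level at 4 h, and TRIM14 had its highest at 8 h. With each class given its untreated share of UMIs (the CD14+ class made up a smaller share of the LPS libraries), the medians were -0.04, 0.42 and 0.06, and the 4 h log2 ratios ran from 0.08 for TRIM34 to 0.93 for TRIM25. The group was written down with earlier results of these data known, and its counts are a description.

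TRIM25 stood at 84.7, 90.6, 153.7 and 85.7 CPM. Its 4 h level was 1.81 times that without LPS (1.74 to 1.89), and at 8 h the ratio was 1.01 (0.950 to 1.08). At 2 h it was 1.07 (1.02 to 1.12). The 4 h library was thus far above the others, the 2 h library slightly above the untreated one, and the 8 h library within counting error of it.

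TRIM21 measured 6.8, 6.8, 12.8 and 8.0 CPM. Its ratio at 4 h was 1.88 (1.62 to 2.19). TRIM5 gave 10.3, 11.2, 18.4 and 10.7 CPM, with a ratio of 1.79 (1.58 to 2.03) at 4 h. In both, as in TRIM25, the 4 h library stood apart from 3 libraries with similar levels.

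TRIM26, a ligase of interferon signalling, measured 23.5, 25.5, 36.6 and 29.6 CPM, and its 4 h ratio was 1.56 (1.43 to 1.69). TRIM38, a regulator of Toll-like receptor and cytosolic nucleic acid sensing, gave 40.9, 45.2, 59.7 and 45.2 CPM, with a 4 h ratio of 1.46 (1.37 to 1.56). These 2 members were also highest at 4 h, with smaller ratios.

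TRIM14, which lacks a RING domain and acts at the mitochondrial adaptor MAVS, had a different order: 6.6, 7.6, 10.3 and 11.8 CPM. Its ratio was 1.54 (1.32 to 1.81) at 4 h and 1.77 (1.46 to 2.14) at 8 h. Within CD3E+ cells it measured 8.6, 10.9, 13.3 and 14.5 CPM, with a ratio of 1.69 (1.31 to 2.18) at 8 h. Over all cells it was the 1 member of the group with its highest level at 8 h.

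TRIM34, a close relative of TRIM5, measured 28.4, 21.6, 34.9 and 34.1 CPM. The 2 h ratio was 0.759 (0.697 to 0.828) and the 4 h ratio was 1.23 (1.14 to 1.33). It was low at 2 h and above the untreated level at both 4 h and 8 h. In MS4A1+ cells TRIM34 was at 65.6, 34.4, 54.2 and 56.8 CPM, below the untreated level in each LPS library. The ratio was 0.524 (0.459 to 0.597) at 2 h and 0.826 (0.733 to 0.930) at 4 h. At 8 h TRIM34 had 223 UMIs there against 515 without LPS, a log2 ratio of -0.21, and the interval of the ratio held 1. In CD3E+ cells it was at 22.7, 18.9, 24.8 and 26.9 CPM, and the interval of its 4 h ratio held 1 (0.953 to 1.26). In the RefSeq annotation (assembly ARS-UCD2.0, used for gene order only) TRIM5 and TRIM34 flank 1 other locus, LOC516599, and how the counting divided reads among similar sequences was not examined.

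The 4 h difference of the group was present in both lymphocyte classes. In CD3E+ cells all 7 members had a log2 ratio above 0 at 4 h, with a median of 0.42 beside -0.01 for all genes. In MS4A1+ cells 6 of 7 did, with a median of 0.38 beside -0.09, the exception being TRIM34. In unclassed cells all 7 did, with a median of 0.55 beside -0.02. The 8 monocyte markers summed to 1596, 761, 531 and 826 CPM in unclassed cells and the 3 neutrophil markers to 2280, 718, 469 and 1538 CPM, and the part of this in the result was not tested. In the CD14+ class 5 members had enough UMIs to be compared at 4 h, 4 of them were above 0 and the median was 0.24 beside -0.20.

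TRIM25 was the member with the most UMIs in each class at 4 h. In CD3E+ cells it measured 69.5, 70.7, 122.9 and 70.0 CPM, with a 4 h ratio of 1.77 (1.65 to 1.90). In MS4A1+ cells it measured 107.0, 99.3, 192.7 and 111.0 CPM, with a 4 h ratio of 1.80 (1.66 to 1.95). In CD14+ cells it measured 101.9, 163.1, 207.0 and 124.1 CPM, with ratios of 1.60 (1.43 to 1.79) at 2 h, 2.03 (1.74 to 2.36) at 4 h and 1.22 (0.953 to 1.54) at 8 h. The CD14+ class was the 1 of these 3 in which TRIM25 was already high at 2 h. The 2 h value there stood against a class median of all genes of -0.56 on the log2 scale. Scaling the class sums by TMM factors (edgeR), which bring that median to -0.07, and DESeq2 factors, which bring it to -0.03, left TRIM25 high at 2 h, with a log2 ratio of 1.25 on the latter.

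TRIM21 in MS4A1+ cells measured 8.3, 7.6, 15.6 and 9.9 CPM, with a 4 h ratio of 1.89 (1.41 to 2.54). In CD3E+ cells it measured 8.2, 7.1, 12.2 and 6.5 CPM, with a 4 h ratio of 1.48 (1.19 to 1.85). TRIM5 in MS4A1+ cells was at 17.7, 16.7, 28.4 and 16 CPM, a 4 h ratio of 1.60 (1.31 to 1.97), and in CD3E+ cells at 10.4, 11.1, 13.6 and 9.4 CPM, a ratio of 1.31 (1.08 to 1.61). TRIM38 measured 44.2, 47.5, 59.5 and 47.1 CPM in CD3E+ cells and 51.4, 51.9, 66.9 and 47.9 CPM in MS4A1+ cells, with 4 h ratios of 1.35 (1.22 to 1.48) and 1.30 (1.15 to 1.47). TRIM26 measured 25.2, 26.8, 32.7 and 26.5 CPM in CD3E+ cells and 37.7, 32.6, 48.0 and 36.1 CPM in MS4A1+ cells, with 4 h ratios of 1.30 and 1.27. All 4 members were highest at 4 h in both classes. For each of these 4 members the intervals of the 2 classes overlapped at 4 h.

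**Figure D2:**
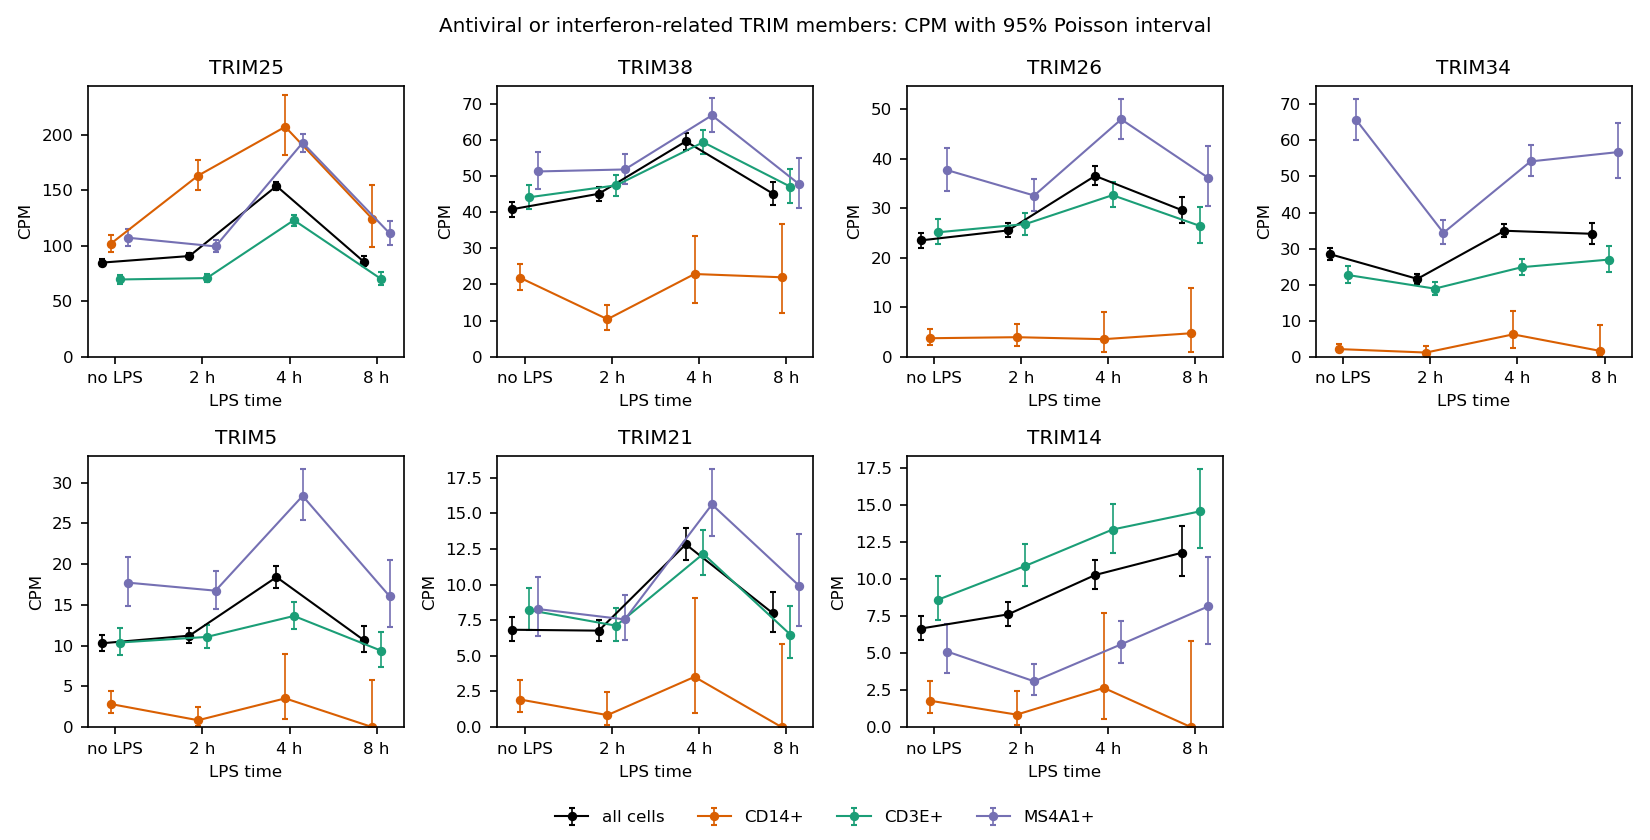
CPM of the 7 antiviral or interferon-related members in each library, over all cells and in the CD14+, CD3E+ and MS4A1+ classes, with 95% Poisson intervals; each y axis starts at 0. TRIM25, TRIM38, TRIM26, TRIM5 and TRIM21 peak at 4 h in CD3E+ and MS4A1+ cells, TRIM14 is highest at 8 h in CD3E+ cells, and TRIM34 in MS4A1+ cells is highest without LPS.

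Of the genes that these proteins act on or with, 25 symbols of antiviral RNA and DNA sensing were listed. Among them, 21 were in the tables and could be compared. The list gave some genes under both an older and a newer symbol, such as DDX58 and RIGI. Apart from such pairs, TICAM1 alone was missing. At 4 h, 7 of the 21 were at least 2-fold higher and none was 2-fold lower, beside 1.17% and 3.9% of all genes. The RNA sensor IFIH1 measured 45.7, 145.0, 239.6 and 68.4 CPM, and DDX58, which encodes RIG-I, 17.0, 18.2, 98.6 and 27.4 CPM. ISG15, a ubiquitin-like modifier, measured 162.6, 1202, 2934 and 339.1 CPM. DHX58, IRF7, CGAS and STAT2 were the others called. The adaptor MAVS stayed between 1.9 and 2.9 CPM, and the kinase TBK1 between 16.1 and 17.7 CPM. The 7 genes called all had their highest level at 4 h, like 6 of the 7 antiviral TRIM genes. They were picked by their 4 h ratio, so larger ratios than those of the TRIM members follow from the call itself. Over all 21 genes the median log2 ratio at 4 h was 0.27, beside 0.62 for the 7 antiviral TRIM genes. The list was chosen with earlier results of these data known, and its counts are a description.

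Of 4 family genes under other names, PML and MEFV were called higher at 1 time each over all cells. PML, also called TRIM19 and the organiser of nuclear bodies, measured 54.7, 81.2, 156.6 and 103.9 CPM, and was called higher at 4 h. MEFV, the inflammasome protein pyrin or TRIM20, measured 37.0, 108.7, 51.0 and 35.5 CPM, and was called higher at 2 h, with a log2 ratio of 1.53. Their maxima over all cells thus fell at different times. By class, both were called higher at 4 h in CD14+, CD3E+, MS4A1+ and unclassed cells, with log2 ratios from 1.13 to 2.09. Of all genes, 5.59%, 1.08%, 2.56% and 2.07% were higher there. At 8 h, 1 of them was called higher in each of CD14+, CD3E+ and MS4A1+ cells, and both were in unclassed cells. The shares of all genes at 8 h were 5.4%, 0.707%, 1.7% and 2.04%. MID2 was at or below 0.5 CPM in each library and MID1 was under the UMI minimum.

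TRIM8, a RING ligase of cytokine and NF-κB signalling, was the 1 member lower by 2-fold over all cells. It measured 32.3, 13.8, 12.7 and 23.1 CPM. The ratios were 0.427 (0.388 to 0.469), 0.394 (0.354 to 0.437) and 0.717 (0.637 to 0.804). In the kept cells all 3 LPS libraries were thus below the untreated library, with the 8 h library nearest to it. These cells held 38503367 of 58038800 deposited UMIs without LPS and 16657841 of 30902952 at 8 h. Over all deposited barcodes TRIM8 had 2311 and 1154 UMIs in these libraries, so its levels were closer there than in the kept cells. Over the alternatives its 8 h log2 ratio ran from -0.57 to 0.44.

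Without LPS, TRIM8 was at 98.0 CPM in CD14+ cells, 13.9 in CD3E+ cells and 14.4 in MS4A1+ cells, so that the CD14+ level was 7.07 times that of CD3E+ cells (6.05 to 8.30). The CD14+ class gave 17.5% of the UMIs of the untreated library and 7.46%, 2.83% and 3.82% of those of the LPS libraries in order of time. When each class was given its untreated share of UMIs, the log2 ratios of TRIM8 over all cells were -0.69, -0.19 and 0.44 in the 2 h, 4 h and 8 h libraries, in place of -1.17, -1.28 and -0.46. With class shares fixed, TRIM8 was no longer called at either time, and the sign at 8 h turned.

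Within CD14+ cells TRIM8 measured 98.0, 64.4, 111.0 and 166.6 CPM. The ratio was 0.657 (0.563 to 0.765) at 2 h, 1.13 (0.929 to 1.37) at 4 h and 1.70 (1.37 to 2.09) at 8 h. The 2 h level was low and the 8 h level high. On the TMM scaling the log2 ratio at 2 h was -0.07 in place of -0.60, and at 8 h 0.78 in place of 0.76, so that the 2 h difference rests on the scaling. The 3 neutrophil markers summed to 9115, 5323, 6835 and 10947 CPM in this class, nearly all of it S100A12, which monocytes also express, and the 8 monocyte markers to 6757, 4183, 3918 and 5543 CPM. CSF3R, a neutrophil receptor, was at 7.9, 29.7, 85.5 and 20.4 CPM there. The part of these in the result was not tested.

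In CD3E+ cells TRIM8 measured 13.9, 8.4, 8.7 and 14.1 CPM, with ratios of 0.603 (0.492 to 0.739) at 2 h and 0.628 (0.510 to 0.772) at 4 h. In MS4A1+ cells it measured 14.4, 6.4, 7.2 and 11.7 CPM, with ratios of 0.446 (0.330 to 0.599) and 0.497 (0.369 to 0.666). Both lymphocyte classes were low at 2 h and 4 h. MS4A1+ at 2 h passed the 2-fold call, where 1.75% of genes were lower, and CD3E+ did not. The log2 ratio of TRIM8 in MS4A1+ cells at 2 h was -1.05, beside a median of -0.12 for all genes. Over the alternatives it ran from -1.16 to -0.76, so that the call rests on the processing. S100A12, a gene of myeloid cells, was also low at 2 h and 4 h in these classes, at 28.6, 9.4, 7.7 and 69.4 CPM in CD3E+ cells and 262.6, 8.9, 11.5 and 110.5 CPM in MS4A1+ cells. The 8 monocyte markers summed to 132, 109, 113 and 143 CPM in CD3E+ cells and 193, 165, 164 and 204 CPM in MS4A1+ cells. TRIM8 in CD3E+ cells was 14.1%, 13.0%, 7.84% and 8.45% of its CD14+ level. The median of the 8 monocyte markers was 0.765%, 0.517%, 0.318% and 1.23% of theirs, and the highest single marker 8.30%, 8.42%, 9.17% and 6.50%. In MS4A1+ cells TRIM8 was at 14.7%, 9.96%, 6.45% and 7.03% of its CD14+ level. The marker median there was 0.949%, 0.363%, 0.364% and 1.55%, and the highest single marker 10.9%, 12.2%, 12.5% and 8.63%. TRIM8 was thus below the highest marker at 4 h in CD3E+ cells and in each LPS library in MS4A1+ cells. The part of free RNA in the lymphocyte values was not tested.

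Many members, like many genes, were low in the CD14+ class. Without LPS, 16 of 29 members with at least 20 UMIs over the 3 larger classes were 2-fold lower in CD14+ cells than in both CD3E+ and MS4A1+ cells, where 36.1% of all genes were. TRIM8 alone was 2-fold higher in CD14+ than in both, where 11.5% of genes were. The number lower in CD14+ cells was 17 of 30 at 2 h (47.3% of genes), 18 of 29 at 4 h (40.9%) and 19 of 28 at 8 h (42%). TRIM8 alone was higher than in both at 2 h (9.56%) and 4 h (10.2%), and TRIM8 and TRIM36 were at 8 h (9.96%).

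TRIM28, also known as KAP1, the corepressor recruited by KRAB zinc finger proteins, was among them. It measured 17.1 CPM in CD14+ cells without LPS, 102.4 in CD3E+ cells and 110.5 in MS4A1+ cells, so the CD14+ level was 0.167 of that in CD3E+ cells (0.137 to 0.202). Over all cells TRIM28 was at 86.5, 88.3, 95.9 and 108.2 CPM, a ratio of 1.25 (1.18 to 1.33) at 8 h, and the lymphocyte classes stayed between 96.0 and 124.2 CPM in all libraries. TRIM34 was at 2.1 CPM in CD14+ cells and 65.6 CPM in MS4A1+ cells without LPS, a ratio of 0.0317 (0.0172 to 0.0536). TRIM26 was at 3.7 CPM in CD14+ cells and 37.7 CPM in MS4A1+ cells, a ratio of 0.0984 (0.0627 to 0.148). In each of these 3 members the interval of the ratio lay far below 1. TRIM59, a ligase of innate signalling, had 2 UMIs in CD14+ cells and 321 in CD3E+ cells, or 0.3 and 21.1 CPM.

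TRIM25 did not share this pattern. Its untreated level in CD14+ cells was 0.952 of that in MS4A1+ cells (0.859 to 1.05) and 1.47 times that in CD3E+ cells (1.33 to 1.62). TRIM27, a ligase of NF-κB signalling, was at 41.6 CPM in CD14+ cells, 16.4 in CD3E+ cells and 22.7 in MS4A1+ cells without LPS, so CD14+ cells exceeded CD3E+ cells 2.53-fold (2.13 to 3.02). TRIM24, a corepressor of nuclear receptors, was at 12.8, 15.1 and 5.7 CPM in the same classes, and the CD3E+ level was 2.63 times that in MS4A1+ cells (1.91 to 3.71). Over all cells TRIM24 stayed between 10.3 and 12.3 CPM.

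**Figure D3:**
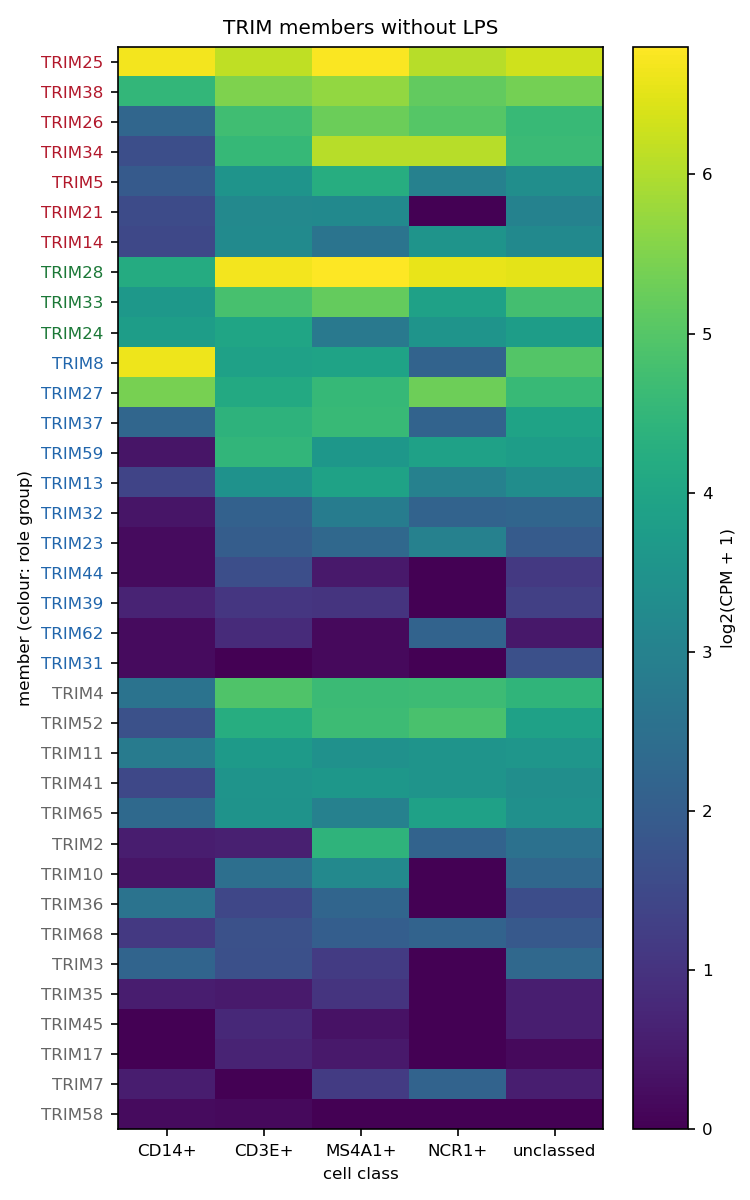
Level of the 36 members without LPS, as log2(CPM + 1), in the 4 gated classes and in unclassed cells, with members ordered by role group (label colour) and total UMIs. TRIM8 is brightest in CD14+ cells and TRIM2 in MS4A1+ cells, while TRIM28, TRIM34 and TRIM26 are dark in CD14+ cells; the NCR1+ column rests on 58 cells.

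A member led a class where it was at least 2-fold above each of the other 3 classes, with at least 20 UMIs. Without LPS, TRIM8 led CD14+ cells (8.11% of all genes led this class), TRIM44 led CD3E+ cells (2.71%), TRIM2 led MS4A1+ cells (3.87%) and no member led NCR1+ cells (0.698%). TRIM8 and TRIM2 led the same classes in each of the 4 libraries, and TRIM44 led without LPS alone. The leads of TRIM44 and TRIM2 rest in part on 0 to 2 UMIs in the small NCR1+ class. Without LPS TRIM44 had 0 UMIs there, where the ratio of CD3E+ to NCR1+ cells could be as low as 0.155, and at 2 h 1 NCR1+ UMI ended its lead while CD3E+ cells stayed 5.08 times above MS4A1+ cells (2.19 to 14.5). For TRIM2 at 4 h the ratio of MS4A1+ to NCR1+ cells was 2.87 (0.780 to 24.0), an interval that held 1.

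TRIM2, an NHL repeat ligase best studied in neurons, measured 20.3 CPM in MS4A1+ cells without LPS and 0.5 CPM in CD3E+ cells, where its level was 0.0259 of the MS4A1+ level (0.0110 to 0.0523). In MS4A1+ cells it was at 20.3, 15.4, 11.1 and 16.3 CPM over the libraries. The 4 h ratio was 0.547 (0.430 to 0.695), and the 8 h ratio of 0.804 (0.592 to 1.08) held 1. The B cell marker list of 8 genes summed to 1509, 1287, 1138 and 1220 CPM in this class, which like TRIM2 was highest without LPS and lowest at 4 h; its part in the result was not tested. TRIM44, which lacks a RING domain, rested on 32 UMIs in CD3E+ cells without LPS, at 2.1 CPM, and 3 UMIs in MS4A1+ cells. Over all cells it measured 1.2, 1.4, 1.9 and 2.5 CPM.

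Among MS4A1+ cells, TRIM27 was the member with the highest 2 h ratio. It measured 22.7, 38.5, 29.9 and 20.6 CPM, a 2 h ratio of 1.70 (1.43 to 2.03) with a return by 8 h. In CD3E+ cells it stayed between 16.4 and 19.6 CPM. TRIM10, a member first known from red cell development, was called lower in MS4A1+ cells at 4 h, where 4.72% of genes were. It measured 8.2, 5.0, 3.1 and 3.8 CPM there, a 4 h ratio of 0.374 (0.241 to 0.574) from 99 UMIs. Over all cells it was at 4.4, 4.5, 3.4 and 2.7 CPM. TRIM10 was thus low in the 4 h and 8 h libraries in both views.

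**Figure D4:**
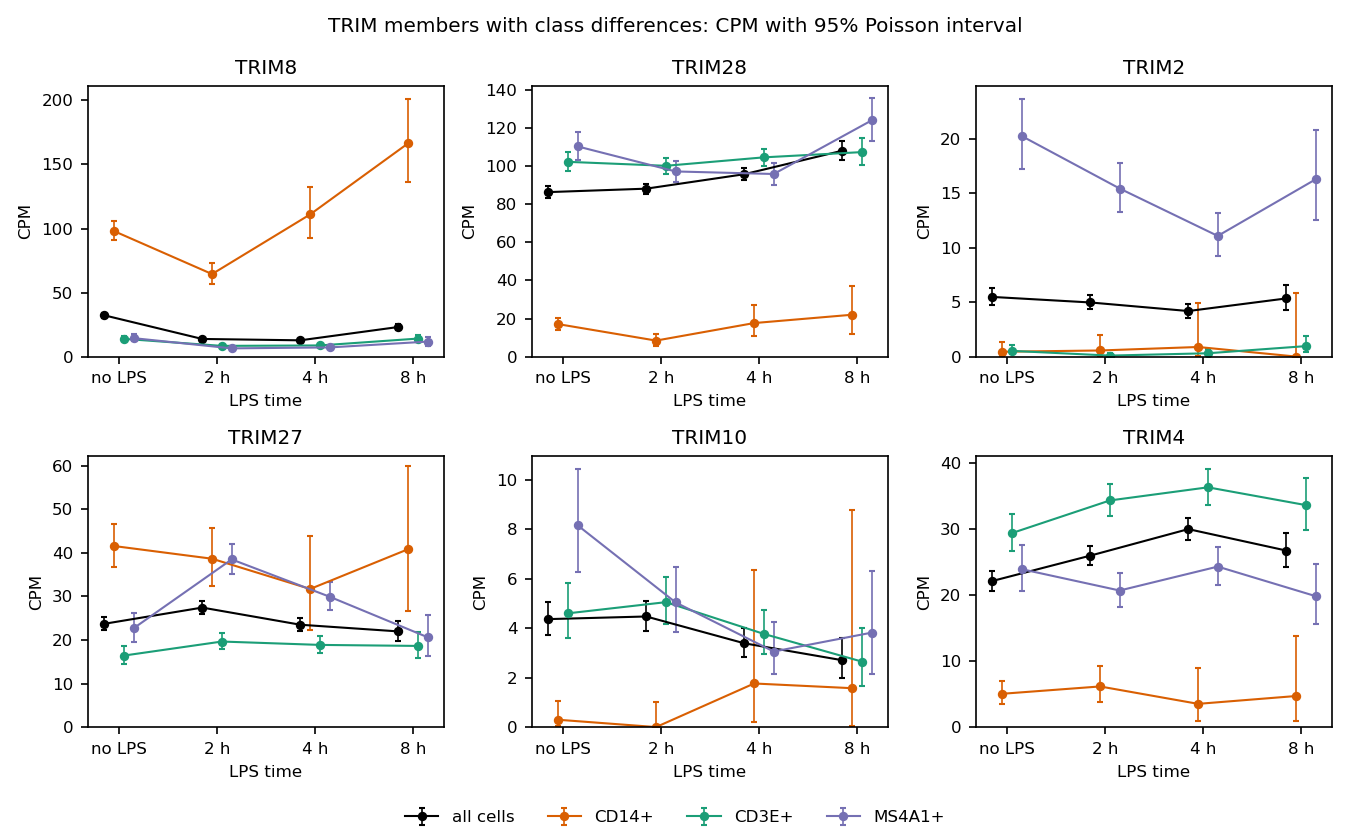
CPM of TRIM8, TRIM28, TRIM2, TRIM27, TRIM10 and TRIM4 in each library, over all cells and in 3 classes, with 95% Poisson intervals; each y axis starts at 0. TRIM8 is highest in CD14+ cells in each library and reaches 166.6 CPM at 8 h, TRIM28 and TRIM4 are lowest in CD14+ cells, and TRIM27 in MS4A1+ cells is highest at 2 h.

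The CD14+ class gave more calls than the other classes, from fewer cells than CD3E+ or MS4A1+ cells. At 2 h, TRIM5, TRIM37 and TRIM38 were called lower, 3 of 16 members that could be compared against 21.3% of all genes, and none was higher, against 4.2%. TRIM38 measured 21.8, 10.4, 22.9 and 22.0 CPM, so that the 2 h library alone was low, with a ratio of 0.475 (0.322 to 0.685). Its log2 ratio was -1.01 at 2 h, and -0.51 on the TMM scaling, where it was not called. TRIM5 and TRIM37 rested on 22 and 26 UMIs over both libraries. At 4 h, TRIM25 and TRIM34 were called higher, 2 of 17 against 5.59%, and none lower, against 13%. TRIM34 rested on 21 UMIs. At 8 h, TRIM24 was called lower, 1 of 14 members against 8.44%, with 86 UMIs without LPS and 2 UMIs at 8 h, a ratio of 0.246 (0.0293 to 0.916). TRIM24 in this class measured 12.8, 6.7, 6.2 and 3.1 CPM. TRIM36, a microtubule-associated member, was called higher at 8 h, 1 of 14 against 5.4%, on 43 UMIs.

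In CD3E+ cells no member was called at 2-fold at any time in either direction, where 0.616%, 1.08% and 0.707% of genes were higher and 0.289%, 0.713% and 0.484% lower in the 2 h, 4 h and 8 h libraries. In MS4A1+ cells no member was higher (2.54%, 2.56% and 1.7% of genes) and none was lower at 8 h (1.92%). Unclassed cells gave TRIM25 higher at 4 h, where 2.07% of genes were, and TRIM31 lower at 2 h and 4 h, where 2.24% and 3.76% were, with no other call (higher 1.55% and 2.04% at 2 h and 8 h, lower 2.36% at 8 h). In NCR1+ cells, 5 to 8 members could be compared and 1 was called, TRIM34 at 8 h, lower, from 19 UMIs to 8, where 3.78% of genes were lower. Shares of genes in the other NCR1+ comparisons were 4.57%, 5.46% and 3.88% higher, and 2.96% and 3.29% lower. TRIM34 measured 65.9, 36.0, 48.2 and 30.5 CPM in this class, and the interval of its 8 h ratio held 1 (0.175 to 1.11).

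The remaining abundant members differed by less than 1.5-fold over all cells. TRIM33, a corepressor of SMAD signalling, measured 25.8, 28.0, 28.3 and 30.5 CPM, a ratio of 1.18 (1.06 to 1.32) at 8 h. TRIM4, a PRY-SPRY ligase linked to RIG-I, measured 22.2, 26.0, 30.0 and 26.8 CPM, a 4 h ratio of 1.36 (1.24 to 1.48). TRIM37, mutated in mulibrey nanism, measured 16.4, 15.1, 15.2 and 19.2 CPM. The 3 corepressors had a median log2 ratio of 0.13 at 4 h and 0.23 at 8 h, and the 11 members of cytokine and NF-κB signalling of -0.02 and 0.12. By structure, the 19 members grouped as PRY-SPRY had medians of 0.06, 0.15 and 0.20 in the 2 h, 4 h and 8 h libraries. The medians of all genes were -0.03, 0.02 and 0.09. TRIM14 was not among the 19, as it was grouped with TRIM44 as a member without a RING domain. The PRY-SPRY members that could be compared had medians of 0.02, 0.16 and 0.11 in CD3E+ cells. In MS4A1+ cells their medians were -0.20, 0.26 and -0.09. The 3 members with NHL repeats, TRIM2, TRIM3 and TRIM32, were below 0 at 2 h and 4 h over all cells, with medians of -0.21 and -0.32. Of all genes, 44.5% and 51.9% were above 0 at these times. In MS4A1+ cells 1 of the 3 was above 0 at each of these times.

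Over all 36 members, 17 were highest at 8 h, 9 at 4 h, 3 at 2 h and 7 without LPS. The share of all genes highest in each library was not counted, so these numbers do not set the members apart. At 8 h, 27 of 36 had log2 ratios above 0, with a median of 0.17, beside 63.1% of all genes above 0 and a median of 0.09. TRIM23, a ligase with an ARF domain, measured 2.7, 2.4, 2.9 and 4.8 CPM, an 8 h ratio of 1.78 (1.31 to 2.40). Plain ratios beyond 2-fold that the pseudocount of 1 CPM removed were found in TRIM44, at 2.06 (1.32 to 3.21) at 8 h, and in 3 members with under 50 UMIs. TRIM31 had 20, 8, 3 and 1 UMIs, 18 of the first 20 in unclassed cells, TRIM7 had 18, 6, 5 and 2 UMIs, and TRIM58 had 3, 9, 8 and 8.

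In the single-cell ATAC tables, 32 of the 36 members were listed in at least 1 library and 29 in all 4. TRIM5, TRIM32, TRIM58 and TRIM68 were not listed in these tables. The untreated library was far shallower, with 975012 counts and a median of 213 per barcode, against 11957904 to 30250143 counts in the LPS libraries. Values are counts per gene scaled to 1000000, without cell classes, and most were even numbers, so intervals were computed on counts divided by 2.

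Against the untreated library the median log2 ratios of the 29 members were -0.05, -0.02 and 0.01 with LPS time, beside -0.02 for all genes at each time. TRIM4 was called higher at 2 h, 4 h and 8 h, 1 of 29 members each time, where 9.21%, 8.21% and 4.27% of genes were higher. It measured 17.4, 54.6, 51.3 and 43.8 CPM, with 17 counts in the untreated library and a 2 h ratio of 3.13 (1.61 to 7.06). TRIM4 was low in the shallow library and similar in the 3 others. No member was lower at 2 h or 4 h, against 5.96% and 4.75% of genes. TRIM2 was called lower at 8 h, 1 of 29 where 6.01% of genes were lower, at 62.6, 55.4, 52.3 and 26.7 CPM. Against the 2 h library the 8 h ratio of TRIM2 was 0.482 (0.404 to 0.571), where 6.69% of genes were lower, and it was 1 of 31 members called. The 8 B cell markers summed to 1099, 841, 835 and 608 CPM in the same libraries, and TRIM2 RNA led the MS4A1+ class. The share of B cells among ATAC barcodes was not measured and its part in the result was not tested. TRIM44 was called lower at 4 h against 2 h, 1 of 32 where 1.46% of genes were lower, at 4.1 and 1.0 CPM. No member was higher in these 2 comparisons among LPS libraries, against 0.457% and 1.17% of genes.

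TRIM25 and TRIM8, with calls in RNA, had no call in the ATAC libraries. TRIM25 measured 80.0, 77.2, 85.8 and 57.9 ATAC CPM, a 4 h ratio to 2 h of 1.11 (1.02 to 1.21) and an 8 h ratio to 2 h of 0.749 (0.663 to 0.846). TRIM8 measured 175.4, 177.1, 183.1 and 203.0 ATAC CPM, with ratios to the untreated library whose intervals held 1 at each time. TRIM34 measured 197.9, 112.1, 122.7 and 145.5, and TRIM21 88.2, 47.2, 52.6 and 76.9. Both were lower at 2 h than without LPS, with ratios of 0.566 (0.461 to 0.703) and 0.535 (0.393 to 0.746). They were higher at 8 h than at 2 h, with ratios of 1.30 (1.19 to 1.41) and 1.63 (1.45 to 1.83). None of these was a 2-fold call, and the course was not particular to them. TRIM27 had ratios of 0.583 (0.427 to 0.816) and 1.27 (1.12 to 1.44). Of 29 members, 7 had intervals below 1 and 3 above 1 at 2 h against no LPS. Of 31 members, 11 had intervals above 1 and 6 below 1 at 8 h against 2 h. The share of all genes with such intervals was not counted, so these counts do not set the members apart from other genes.

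**Figure D5:**
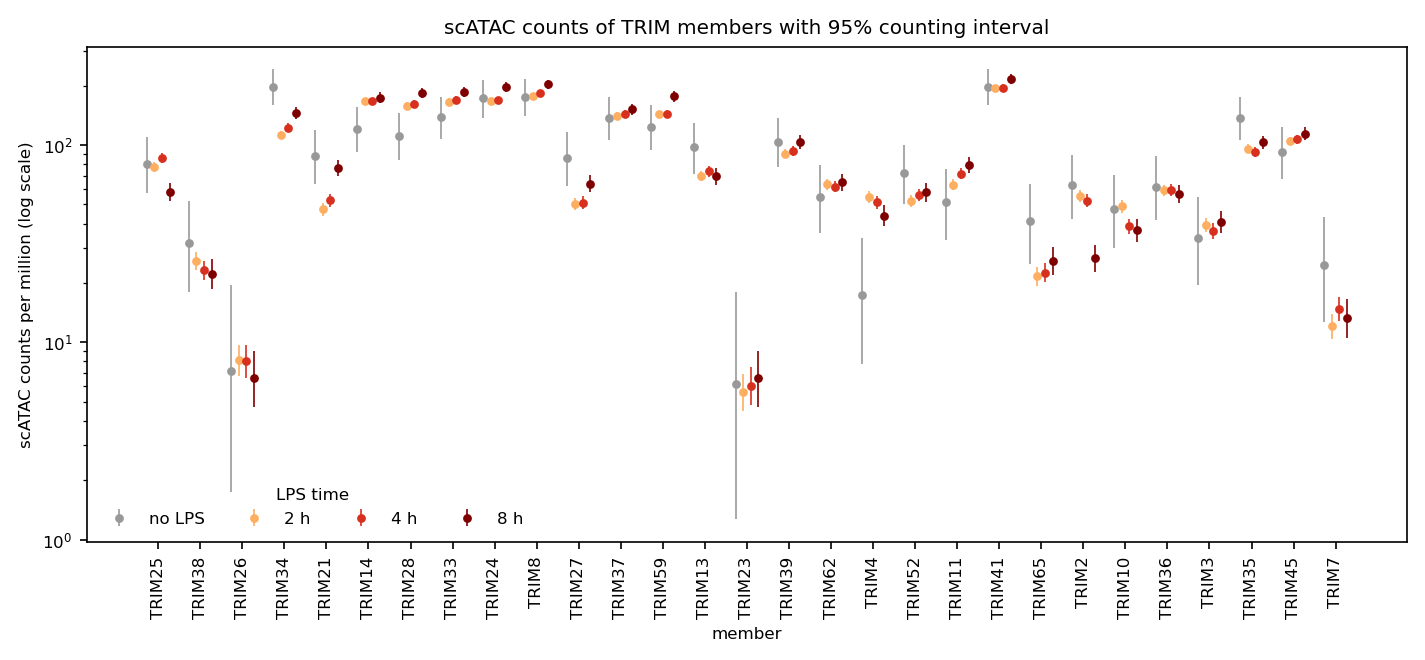
Single-cell ATAC level in CPM (log axis) of the 29 members listed in all 4 tables, 1 point per library with 95% counting intervals, in role group order. Grey points of the untreated library have the widest intervals; TRIM4 is lowest there, and TRIM2 is lowest at 8 h.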

How the data were processed

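The authors aligned reads to ARS-UCD1.2/bosTau9 with Cell Ranger and deposited unnormalised counts of UMIs for each gene and barcode. The scATAC tables likewise hold counts per gene, deposited by the authors, whose counting rule is not given in the sources used here. Barcodes were kept at 200 to 3000 genes, 200 UMIs or more and a mitochondrial share below 20%, and were summed per library and class, scaled to CPM and compared as log2((CPM + 1)/(CPM + 1)); doublets were not called beyond the gene limit. Genes needed 20 UMIs. With 1 library per treatment, no test was run; exact Poisson and conditional 95% intervals cover counting error only. Python 3.11.15, scipy 1.17.1, edgeR 4.0.16 (TMM) and DESeq2 1.42.0 (size factors) were used, and ratios were tested on simulated data. Values are printed for members called over all cells, among the 10 with most UMIs, leading a class, or called in a class with 50 UMIs or more (14 members); TRIM5, TRIM7, TRIM14, TRIM21, TRIM23, TRIM31, TRIM36, TRIM58, TRIM59 and the other genes were named after their values were seen. The members and lists were chosen with earlier results of these data known. Alternatives were other pseudocounts, scalings, cell limits and gates.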

Additional observations from a re-analysis of the deposited data

Results flagged for a closer look

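TRIM25 at 2 h had opposite signs in 2 classes: its log2 ratio to the untreated library was 0.67 in CD14+ cells and -0.63 in NCR1+ cells. Each class had 1 library per treatment, and the opposite signs alone made it stand out. The NCR1+ value rests on 19 UMIs without LPS and 20 at 2 h, and the interval of its ratio, 0.642 (0.325 to 1.27), held 1, so it shows no direction. The difference between the classes was not tested.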

How the results depend on the processing

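No paired analysis was possible because each treatment has 1 library and the labels carry no replicate numbers. Over all cells and in CD14+, CD3E+ and MS4A1+ cells, no called difference of a member changed its direction under any alternative. The direction of calls in NCR1+ cells, unclassed cells and scATAC was not followed under the alternatives. Of the counts of members called, the following moved by over 1.5 times; the cause was not tested except where the alternative itself sets it. Over all cells, the 1.5-fold call in place of 2-fold gave 4 members higher at 4 h and 3 at 8 h. Members lower at 2-fold numbered 0 at 2 h with a pseudocount of 5 CPM, 0 at 4 h with all deposited barcodes, and 0 at both times with classes given their untreated share of UMIs, and 1 was higher at 8 h with cells weighted equally. On the 1.5-fold call, a pseudocount of 0.5 CPM gave 3 lower at each time, and one of 5 CPM gave 0 higher at 8 h. TMM and DESeq2 factors each gave 1 higher and 1 lower at 8 h, no upper gene limit and all barcodes each gave 1 higher at 8 h, and a minimum of 2000 UMIs gave 1 lower at 8 h. Fixed class shares gave 2 higher and 0 lower at 4 h, and 0 higher and 1 lower at 8 h. In CD14+ cells, where 3 members were higher and 4 lower in any LPS library, a pseudocount of 5 CPM gave 0 and 1, a gate of 1 UMI 5 and 2, and TMM or DESeq2 factors 2 lower, while no upper gene limit or 2000 UMIs gave 1 higher. In MS4A1+ cells, with 2 lower, a pseudocount of 5 CPM gave 0 and a gate of 2 UMIs, no upper gene limit, TMM or DESeq2 factors gave 1. In NCR1+ cells a pseudocount of 5 CPM or a gate of 2 UMIs gave 0 lower. With classes set by the gate gene with most UMIs, 0 members led CD3E+ cells. In scATAC, the 1.5-fold call gave 5 lower at 2 h and at 4 h, 3 higher and 3 lower at 8 h, and 1 higher and 3 lower at 8 h against 2 h. Barcodes of at least 500 counts gave 2 lower at each time. A pseudocount of 5 CPM gave 0 lower at 4 h and 8 h against 2 h, as did counting barcodes with a count, which also gave 0 lower at 8 h against no LPS. The other 237 such counts stayed within 1.5 times. Of the values of named members and groups, 1129 stayed within a set limit and 70 moved beyond it, in no case against a call's direction. For a member the limit was its counting interval, or a change of at most the interval width divided by 2. For a group median it was the standard deviation over members divided by the square root of their number. Fixed class shares, cells weighted equally and DESeq2 factors on class sums were added after seeing the data. Few UMIs in CD14+ and NCR1+ cells and few counts in the untreated scATAC library widen the intervals of their values.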
